A study of Homo sapiens with 9 samples.

Results

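The genes described here are 35 genes of the NF-kappaB pathway, its inhibitors and target genes, and the cytokines and chemokines of myeloid cells, chosen by symbol from the 26485 symbols of the count table. All 35 were in the table. For 28 of them counts were high enough to be tested, and 5 (IL6, IL10, CXCL3, CCL3 and CCL4) had 0 counts in all 9 libraries. RNA sequencing was done on total RNA of MV4;11, a line of human leukaemic cells of the myelomonocytic lineage that carries a rearranged KMT2A (MLL) gene. The groups were parental cells, cells whose MYC carries the K148Q substitution and cells whose MYC carries the K148R substitution, with 3 libraries each. All cells were untreated and kept in RPMI. At the substituted position the parental MYC protein has a lysine. Glutamine is often used to stand in for an acetylated lysine and arginine for a lysine that cannot be acetylated. How the substitutions were made, whether each mutant line is a single clone, and what the codes Q2 and R14 in the sample titles stand for is not said in the labels. The labels name no separate cultures behind the replicate libraries, so p-values measure only the spread between these libraries, which may be technical.

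NF-kappaB is a family of dimeric transcription factors made from the subunits encoded by NFKB1, NFKB2, REL, RELA and RELB. In resting cells the dimers are held in the cytoplasm by inhibitor proteins such as IkappaB-alpha, the product of NFKBIA. Signals from TNF, interleukin-1 or Toll-like receptors lead to phosphorylation and loss of the inhibitors, and the dimers then enter the nucleus and bind kappaB sites. Among the best known target genes in monocytes are those of inflammatory cytokines and chemokines and those of the pathway's own inhibitors, which close a feedback loop.

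The promoter sequences show how often the kappaB sequence itself occurs next to these genes. Windows from 250 bases before to 50 bases after an annotated start, from RefSeq on GRCh38.p14, were matched for 29 of the 35 genes, which together have 50 such windows. No window was matched for RELB, NFKBIE, IL18, CCL2, CCL4 and CCL5. On either strand, the kappaB consensus was found next to 14 of the 29 genes (48.3%), against 3619 of 27305 genes with a window (13.3%). A shorter sequence, GGAATTTCC or its reverse complement GGAAATTCC, lies partly inside the consensus and was found next to 10 of the 29 genes, against 153 of 27305 genes (0.56%). The E-box CACGTG, a sequence bound by MYC with its partner MAX, was found next to 2 of the 29 genes, TNFAIP3 and CCL3, against 8.77% of all genes. The stretches below give examples, with 1 kappaB match or match of the shorter sequence per gene, for subunits, inhibitors and the target genes BIRC3, CXCL10, CXCL8 and ICAM1, whose levels are described next. Further matches in some of these genes, and those next to LTB, IL6, CXCL2 and CXCL3, are not shown. They read 5′ to 3′ on the strand of the gene, and capitals mark the match.
NFKB1 (chr4:102501300-102501329): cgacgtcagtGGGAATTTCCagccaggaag
NFKB2 (chr10:102395674-102395703): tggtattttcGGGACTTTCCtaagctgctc
REL (chr2:60881517-60881546): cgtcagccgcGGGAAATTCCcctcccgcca
NFKBIA (chr14:35404811-35404840): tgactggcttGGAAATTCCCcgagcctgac
NFKBIB (chr19:38899931-38899960): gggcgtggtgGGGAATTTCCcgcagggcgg
NFKBIZ (chr3:101827757-101827786): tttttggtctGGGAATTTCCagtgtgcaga
TNIP1 (chr5:151081057-151081086): ccagtctccgGGGACTTTCCcaggggtggg
TNFAIP3 (chr6:137867182-137867211): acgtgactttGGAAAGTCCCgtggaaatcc
TNFAIP3, E-box (chr6:137867171-137867196): cccagagagtCACGTGactttggaaa
BIRC3 (chr11:102317275-102317304): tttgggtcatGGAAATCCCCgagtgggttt
CXCL10 (chr4:76023600-76023629): tctgcaacatGGGACTTCCCcaggaacagc
CXCL8, GGAATTTCC (chr4:73740468-73740496): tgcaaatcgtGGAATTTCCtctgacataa
ICAM1, GGAATTTCC (chr19:10270924-10270952): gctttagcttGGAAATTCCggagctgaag

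The 250 bases before the start are shown in full for NFKBIA, whose product is the feedback inhibitor of the pathway. In NFKBIA (chr14:35404750-35404999, minus strand) the match begins 81 bases before the start. In CXCL8 the shorter sequence begins 91 bases before it.
NFKBIA: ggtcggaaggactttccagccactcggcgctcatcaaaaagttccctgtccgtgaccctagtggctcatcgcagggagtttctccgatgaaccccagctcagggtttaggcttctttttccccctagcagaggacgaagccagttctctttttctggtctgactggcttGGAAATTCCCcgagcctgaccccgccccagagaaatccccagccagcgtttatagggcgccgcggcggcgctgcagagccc
A match is a run of letters and not a measured binding site. Of the members with the consensus in a window, 11 were tested, and 8 of them were higher and 1 lower in K148R than in K148Q cells. Of the members with a window but no match of the consensus, 12 were tested, with 10 higher and 1 lower. This class includes CXCL8 and ICAM1, which hold the shorter sequence, so it is not free of kappaB-like sequence. Of all tested genes 36.6% were higher and 34.5% lower. Between the mutants the calls were thus mostly upward in both classes, with median log2 fold changes of 0.93 with a match and 1.67 without. In K148R against parental cells the classes differed. With a match 5 were higher and 4 lower (median -0.07), and without one 9 were higher and 2 lower (median 0.75), against 37.8% and 37.3% of all tested genes. Whether a match bears on the direction was not tested.

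Library totals ran from 13747087 to 18938391 counts. Levels are CPM, counts relative to the TMM-scaled library size, given as mean ± SD of n = 3 libraries, and a group with 0 counts lies under a floor of 3 counts summed over its libraries, or 0.0635 CPM for parental cells, 0.0651 for K148Q and 0.0608 for K148R. Fold changes are on the log2 scale, and a gene was called higher or lower at an adjusted p under 0.05 in the edgeR quasi-likelihood test with Benjamini-Hochberg adjustment over 12845 genes. The MYC transcript stood at 333 ± 4.04 CPM in parental cells, 472 ± 29.5 with K148Q and 379 ± 3.38 with K148R, and gene counts do not show the substituted codon. K148Q replicate 3 stood apart from the other K148Q libraries, at 17.3 and 17.8 chi-square units per degree of freedom against them, where the other pairs within a group had 1.34 to 5.21. Over the tested members it lay a median of -0.13 log2 units from the other K148Q libraries. All 9 genes listed as markers of the line, among them CD33, SPI1, FLT3, MEIS1 and HOXA9, had counts in every group. Of the other cell types, CD3E, MS4A1 and EPCAM, which mark T cells, B cells and epithelium, had 0 counts in each of the 3 groups.

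In K148Q cells, most of the tested members were lower than in parental cells. Of 28 tested members 23 were called (53.3% of all tested genes were), 17 of them lower and 6 higher, against 26.3% lower and 27.0% higher among all tested genes, and the median log2 fold change was -0.44 for these members and -0.0072 for all tested genes. K148R cells showed the opposite lean against parental cells, with 25 of 28 called (75.1% of all tested genes were), 17 higher and 8 lower, against 37.8% and 37.3% of all tested genes, and a median of 0.34 against -0.0035. Compared directly, K148R and K148Q cells differed for 24 of 28 members (71.0% of all tested genes), with K148R higher for 21 and lower for 3, against 36.6% and 34.5% of all tested genes, and the median was 0.97 against 0.0172. The libraries of K148Q lay wholly above the parental ones for 6 members and wholly below them for 18, against 29.9% and 29.6% of all tested genes. Those of K148R lay above the parental ones for 18 and below for 8, against 40.4% and 40.2%, and above those of K148Q for 22 and below for 3, against 36.9% and 34.5%. Differences that were called and at least 2-fold were found in K148Q against parental cells for 3 members upward (4.71% of all tested genes) and 8 downward (6.68%). In K148R against parental cells they were found for 7 upward (14.4%) and 5 downward (14.8%), and in K148R against K148Q cells for 14 upward (13.8%) and 2 downward (12.1%). These counts include CXCL10 and PTGS2, which passed the filter on low counts through 1 group alone. In bulk RNA, fewer cells with a transcript and less transcript per cell cannot be told apart. The comparisons with parental cells share the parental libraries, so each is given by its own values.

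**Figure D1:**
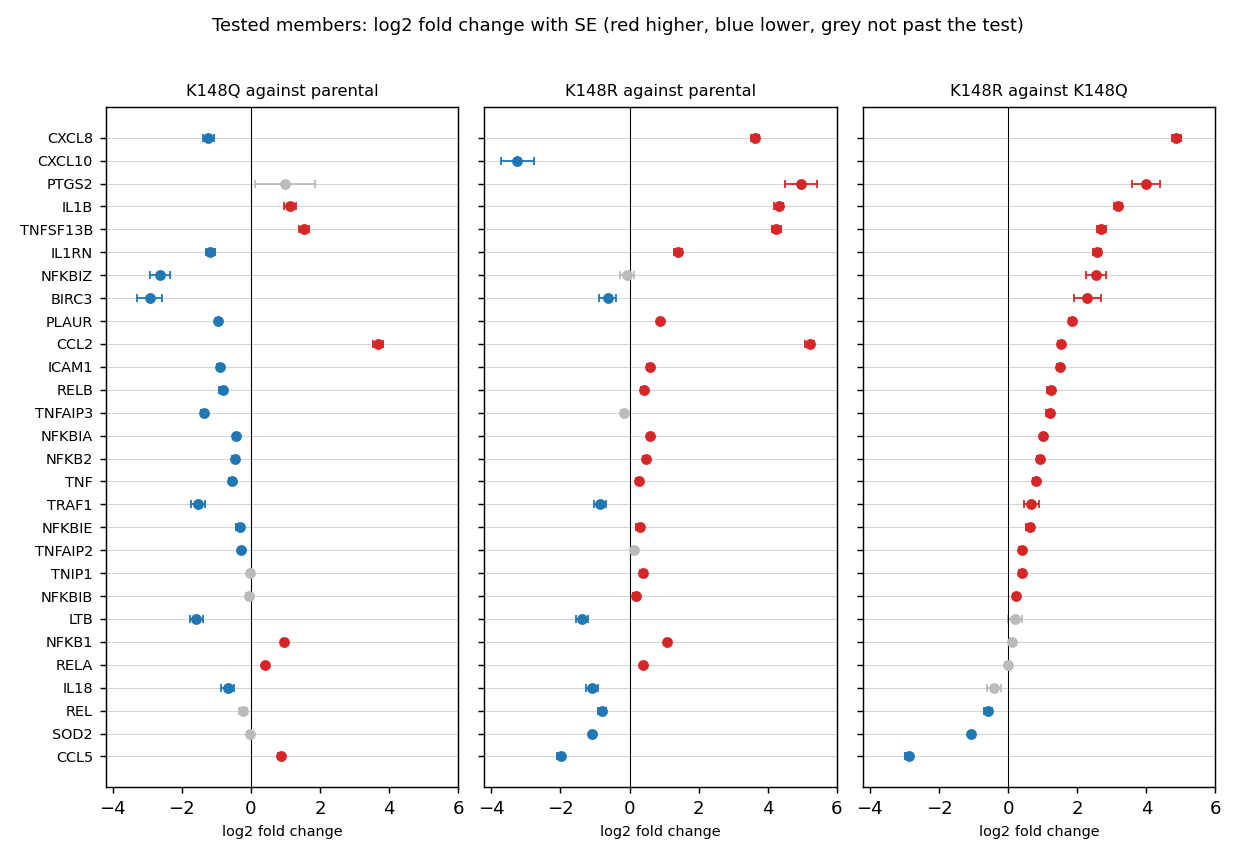
Log2 fold change with its standard error (horizontal axis) for the 28 tested members (rows, ordered by the difference between the mutants) in each comparison. Points are red where a gene was called higher, blue where lower and grey where the test was not passed, and CXCL10 is left out of the K148Q panels because K148Q cells had 0 counts. In the K148R against K148Q panel 20 of the plotted points are red and 3 are blue.

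The calls of each comparison with parental cells are named here side by side, and because the parental libraries are shared, no count is drawn from how they combine. NFKB2, RELB, NFKBIA, NFKBIE, ICAM1, PLAUR, TNF, IL1RN and CXCL8 fell in K148Q and rose in K148R cells. NFKB1, RELA, IL1B, CCL2 and TNFSF13B rose in both mutants, and BIRC3, TRAF1, IL18, CXCL10 and LTB fell in both. CCL5 rose in K148Q and fell in K148R cells. NFKBIZ, TNFAIP2 and TNFAIP3 fell in K148Q cells and were not called in K148R against parental cells. NFKBIB, TNIP1 and PTGS2 rose and REL and SOD2 fell in K148R cells, and these were not called in K148Q against parental cells.

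The 5 subunit genes did not move as a block. NFKB1 (chromosome 4, 102501329 to 102617302), which encodes the p105 precursor of the p50 subunit, was at 40.9, 37.0 and 36.4 CPM in the parental libraries, 74.8, 73.6 and 75.5 in K148Q and 84.5, 78.0 and 80.3 in K148R libraries. Every mutant library was above every parental library. The log2 fold change was 0.97 in K148Q (SE 0.0683, adjusted p = 3.2e-08) and 1.09 in K148R cells (SE 0.0681, adjusted p = 1.7e-09). The K148R libraries all lay above the K148Q libraries, but this difference of 0.12 with an SE of 0.0656 did not pass the test (adjusted p = 0.12). RELA (chromosome 11, 65653596 to 65663094), which encodes the p65 subunit that activates transcription, rose from 75.4 ± 1.41 to 101 ± 10.6 CPM in K148Q and to 99.6 ± 5.64 CPM in K148R cells (log2 fold change 0.42 and 0.40). Between the mutants RELA differed by -0.01 (SE 0.0755). K148Q replicate 3, at 88.4 CPM, was the lowest K148Q library, and without it RELA was called lower in K148R than in K148Q cells (log2 fold change -0.12, adjusted p = 0.047, with adjusted p from 0.047 to 0.94 over the alternatives).

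NFKB2 and RELB encode the p100/p52 and RelB proteins of the non-canonical branch, and both were lowest in K148Q and highest in K148R cells. NFKB2 (chromosome 10, 102394110 to 102402529) was at 29.2, 26.5 and 27.9 CPM in parental cells, 22.9, 19.5 and 18.7 in K148Q, and 39.4, 38.7 and 37.8 in K148R libraries. RELB (chromosome 19, 45001430 to 45038198) was at 23.4, 24.8 and 23.9 CPM in parental cells, 14.3, 14.8 and 11.7 in K148Q, and 31.6, 32.1 and 32.2 in K148R libraries. For both genes the 3 groups did not overlap. K148R exceeded K148Q cells by 0.93 for NFKB2 (SE 0.0891, adjusted p = 2.6e-07) and by 1.24 for RELB (SE 0.0953, adjusted p = 2.3e-08) on the log2 scale. REL (chromosome 2, 60881521 to 60931610), which encodes c-Rel, ran the other way. It was at 22.1 ± 0.977 CPM in parental cells, 18.8 ± 1.45 in K148Q and 12.6 ± 2.02 in K148R cells, and it fell in K148R against both other groups (log2 fold change -0.80 against parental, adjusted p = 1.4e-05, and -0.58 against K148Q, adjusted p = 0.0004). Its K148Q difference of -0.23 from parental cells did not pass (adjusted p = 0.099), but did without K148Q replicate 3 (-0.27, adjusted p = 0.023, with adjusted p from 0.023 to 0.27 over the alternatives). About 43.1% of the 50-base windows of REL transcripts in GENCODE also occur in transcripts of other genes, almost all of them in an overlapping noncoding RNA on the same strand.

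**Figure D2:**
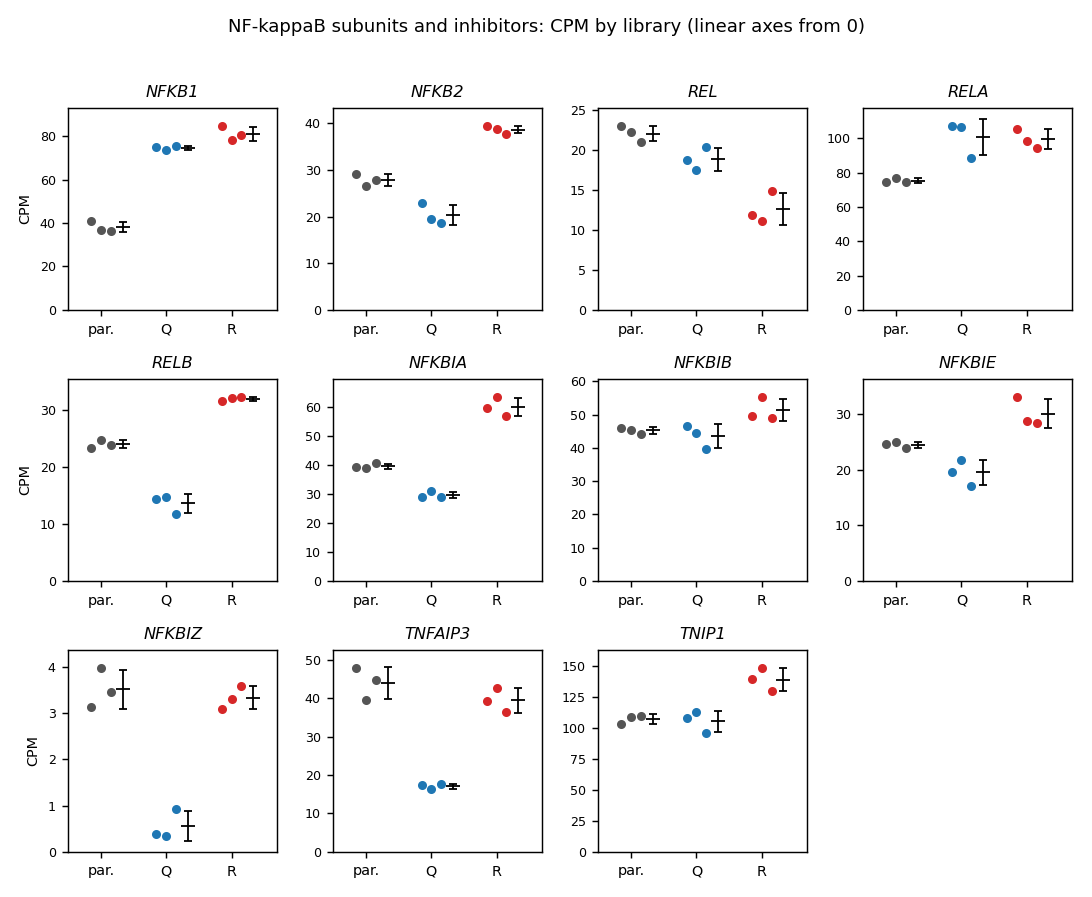
CPM (vertical axes, linear from 0) of the 5 subunit genes and the 6 genes listed as inhibitors in each library, with points for libraries and black bars for mean ± SD of 3 libraries. The groups are parental (par.), K148Q (Q) and K148R (R). NFKB1 sits at 36.4 to 40.9 CPM in parental and 73.6 to 84.5 CPM in mutant libraries, while TNFAIP3 is at 16.4 to 17.6 CPM in K148Q and 36.4 to 47.8 CPM in the other libraries.

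All 6 genes listed as inhibitors were called higher in K148R than in K148Q cells, as were 36.6% of all tested genes. They include NFKBIZ, whose product is a nuclear co-regulator. NFKBIA (chromosome 14, 35401511 to 35404749), whose promoter is printed above, was at 39.1, 39.0 and 40.4 CPM in parental cells, 28.7, 30.8 and 29 in K148Q, and 59.5, 63.2 and 56.9 in K148R libraries. These ranges did not overlap. The log2 fold change was -0.42 in K148Q (SE 0.0729, adjusted p = 0.00023) and 0.60 in K148R against parental cells (SE 0.0701, adjusted p = 1.9e-06). NFKBIE (chromosome 6, 44258166 to 44265788), which encodes IkappaB-epsilon, was at 24.5 ± 0.524, 19.5 ± 2.32 and 30.1 ± 2.61 CPM in parental, K148Q and K148R cells. Its rise in K148R against parental cells (log2 fold change 0.30) was lost without parental replicate 3 (adjusted p = 0.054) and without K148R replicate 1 (adjusted p = 0.078), with adjusted p from 0.00091 to 0.078 over the alternatives. NFKBIB, which encodes IkappaB-beta and shares 40 exonic bases with SIRT2 on the opposite strand, had the smallest of the 6 differences between the mutants (0.24, a call lost without K148R replicate 2 at adjusted p = 0.078 and with only the compared groups fitted at adjusted p = 0.058, with adjusted p from 0.0061 to 0.078 over the alternatives), at 45.2 ± 0.984 CPM in parental cells, 43.6 ± 3.52 with K148Q and 51.3 ± 3.36 with K148R. Its call in K148R against parental cells (log2 fold change 0.18, adjusted p = 0.046) was lost in 11 of 18 alternatives, with adjusted p from 0.0086 to 0.2.

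TNFAIP3 (chromosome 6, 137867188 to 137883312) encodes A20, an enzyme that edits ubiquitin and shuts the pathway down, and NFKBIZ (chromosome 3, 101827991 to 101861022) encodes IkappaB-zeta, a nuclear co-regulator. TNFAIP3 was at 47.8, 39.5 and 44.7 CPM in parental cells, 17.4, 16.4 and 17.6 in K148Q, and 39.3, 42.8 and 36.4 in K148R libraries. NFKBIZ was at 3.13, 3.98 and 3.45 CPM in parental cells, 0.391, 0.342 and 0.93 in K148Q, and 3.10, 3.32 and 3.59 in K148R libraries. For both genes the K148Q libraries lay below the rest and the parental and K148R libraries overlapped. TNFAIP3 fell in K148Q against parental cells by 1.36 on the log2 scale (SE 0.0942, adjusted p = 2.6e-08), and NFKBIZ by 2.62 (SE 0.292, adjusted p = 3.5e-06), or by 3.22 without K148Q replicate 3. The K148R values of TNFAIP3 differed from parental by -0.16 (adjusted p = 0.12), and this difference passed the test in 4 of 18 alternatives, among them without parental replicate 2 (-0.24, adjusted p = 0.039) and without K148Q replicate 3 (-0.17, adjusted p = 0.026), with adjusted p from 0.026 to 0.37. TNIP1, whose protein binds A20, was at 107 ± 3.76 CPM in parental and 106 ± 8.48 in K148Q cells (log2 fold change -0.02, SE 0.0708) and rose to 139 ± 9.37 CPM in K148R cells (log2 fold change 0.38, adjusted p = 0.0002).

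Target genes that act in survival and signalling were lower in both mutants or in one of them. BIRC3 (chromosome 11, 102317450 to 102339403), which encodes the apoptosis inhibitor cIAP2, had 80 counts in parental cells, 10 in K148Q and 54 in K148R cells, and was at 1.57, 1.95 and 1.61 CPM in parental cells, 0.261, 0.205 and 0.186 in K148Q, and 1.14, 0.813 and 1.30 in K148R libraries. Its fall of 2.92 on the log2 scale in K148Q cells (SE 0.364, adjusted p = 9.9e-06) was called at this low depth. The call in K148R cells (log2 fold change -0.63, adjusted p = 0.035) was lost in 7 of 18 alternatives, 4 of them without parental replicate 2, parental replicate 3, K148R replicate 1 or K148R replicate 2, with adjusted p from 0.025 to 0.16. TRAF1, an adaptor of TNF receptors, fell from 4.78 ± 0.761 CPM in parental to 1.65 ± 0.0884 in K148Q and 2.62 ± 0.293 in K148R cells (log2 fold change -1.53 and -0.86). TNFAIP2, the most abundant member per length in parental cells, fell from 120 ± 4.31 to 98.9 ± 11.8 CPM in K148Q cells (adjusted p = 0.013), a call lost without parental replicate 1 (adjusted p = 0.054, with adjusted p from 0.002 to 0.054 over the alternatives). In K148R cells it was at 132 ± 10.8 CPM, which differed from parental cells by 0.14 (adjusted p = 0.14) and passed without K148Q replicate 3 (0.13, adjusted p = 0.015, with adjusted p from 0.015 to 0.5). SOD2, which encodes mitochondrial superoxide dismutase, was at 58.3, 58.2 and 53.9 CPM in parental cells, 53.7, 53.6 and 61.3 in K148Q, and 26.4, 27.8 and 26.6 in K148R libraries. The fall was thus seen in K148R cells, by 1.08 on the log2 scale against parental (SE 0.0774, adjusted p = 8.1e-09) and by 1.06 against K148Q cells. SOD2 shares 298 exonic bases with WTAP on the opposite strand, and the sources used here do not say whether counting used the strand.

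The genes of the surface proteins among the targets, like NFKBIA, were lowest in K148Q and highest in K148R cells. PLAUR (chromosome 19, 43646095 to 43670547), the urokinase receptor, was at 83.8, 84.0 and 75.4 CPM in parental cells, 42.0, 44.9 and 38.7 in K148Q, and 154, 151 and 146 in K148R libraries. ICAM1 (chromosome 19, 10270835 to 10286615), an adhesion protein that binds leukocyte integrins, was at 40.6, 38.9 and 36.8 CPM in parental cells, 20.8, 23.0 and 18.5 in K148Q, and 59.4, 58.5 and 58.2 in K148R libraries. None of the ranges overlapped. K148R exceeded K148Q cells by 1.85 for PLAUR (SE 0.0706, adjusted p = 7.2e-12) and by 1.5 for ICAM1 (SE 0.0849, adjusted p = 6.5e-10).

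Among the cytokines, IL1B and TNFSF13B showed large rises in K148R cells and smaller ones in K148Q cells. IL1B (chromosome 2, 112829751 to 112836903), which encodes interleukin-1 beta, was at 1.27, 1.52 and 1.31 CPM in parental cells, 2.93, 3.08 and 2.97 in K148Q, and 26.3, 26.8 and 28.7 in K148R libraries. The log2 fold change against parental cells was 1.14 in K148Q (SE 0.172, adjusted p = 6.8e-05) and 4.32 in K148R cells (SE 0.13, adjusted p = 4.4e-13). TNFSF13B (chromosome 13, 108251240 to 108308484), which encodes the B cell survival factor BAFF, was at 5.06, 4.55 and 5.06 CPM in parental cells, 12.8, 12.1 and 17.8 in K148Q, and 89.3, 90.1 and 100 in K148R libraries. Its log2 fold change was 1.54 in K148Q (SE 0.149, adjusted p = 8.5e-07) and 4.24 in K148R cells (SE 0.135, adjusted p = 8.4e-13). For both cytokines the 3 groups were fully separated and the mutants differed from each other, by 3.18 for IL1B (adjusted p = 3.5e-12) and 2.7 for TNFSF13B (adjusted p = 3.1e-11).

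IL1RN encodes the secreted antagonist of the interleukin-1 receptor, and it differed from IL1B in K148Q cells. It was at 8.20, 7.59 and 7.74 CPM in parental cells, 3.71, 3.76 and 2.97 in K148Q, and 21.3, 18.9 and 22.0 in K148R libraries. It fell in K148Q (log2 fold change -1.17, SE 0.138, adjusted p = 6.1e-06) and rose in K148R cells (1.40, SE 0.111, adjusted p = 2.5e-08). TNF (chromosome 6, 31575567 to 31578336) kept to the same directions with smaller differences, at 26.0 ± 0.404 CPM in parental cells, 17.8 ± 1.78 in K148Q and 31.4 ± 1.9 in K148R cells (log2 fold change -0.54 and 0.27 against parental). LTB, which encodes lymphotoxin beta and lies near TNF in the genome, fell from 7.12 ± 0.0583 CPM to 2.37 ± 0.362 in K148Q and 2.76 ± 0.7 in K148R cells (log2 fold change -1.58 and -1.38, SE 0.187 and 0.181), and the mutants differed by 0.20 with an SE of 0.213 (adjusted p = 0.42). IL18, an interleukin-1 relative that is also processed by caspase-1, fell in both mutants. It was at 11.9, 13.0 and 12.0 CPM in parental cells, 5.80, 6.63 and 10.5 in K148Q, and 5.17, 6.23 and 6.07 in K148R libraries, so K148Q replicate 3 was the library nearest to parental cells. The difference between the mutants was -0.41 (SE 0.19, adjusted p = 0.069). It was called lower in K148R in 5 of 18 alternatives, among them without K148Q replicate 1 (-0.58) and without K148Q replicate 2 (-0.50), with adjusted p from 0.011 to 0.5.

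**Figure D3:**
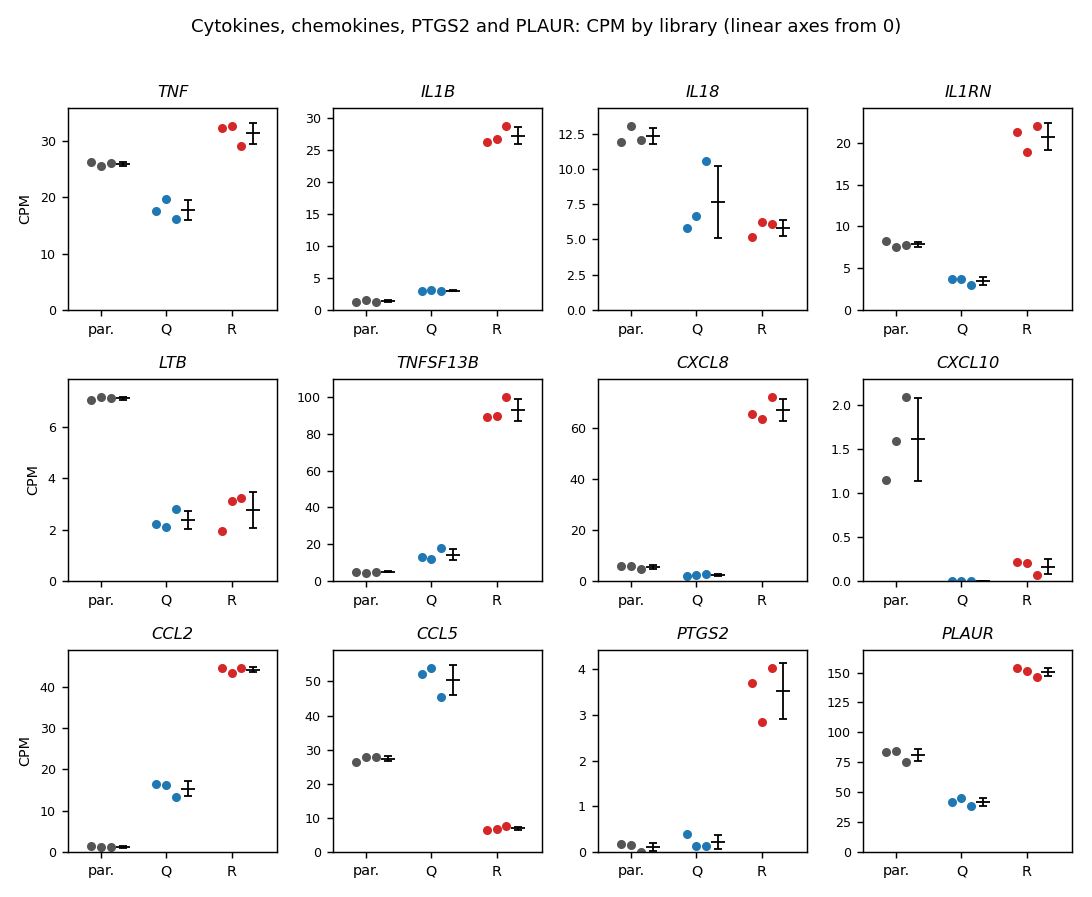
CPM (vertical axes, linear from 0) of 10 tested cytokine and chemokine genes, PTGS2 and PLAUR in each library, with points for libraries and black bars for mean ± SD of 3 libraries. The groups are parental (par.), K148Q (Q) and K148R (R). CXCL8 lies at 63.6 to 72.0 CPM in K148R and at 1.89 to 5.91 CPM in the other libraries, and CCL5 at 6.47 to 7.49 CPM in K148R against 45.5 to 53.9 CPM in K148Q libraries.

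The 4 tested chemokine genes took different directions. CXCL8 (chromosome 4, 73740506 to 73743716), which encodes the neutrophil attractant interleukin-8, was at 5.91, 5.71 and 4.70 CPM in parental cells, 1.89, 2.32 and 2.66 in K148Q, and 65.4, 63.6 and 72.0 in K148R libraries. It fell in K148Q (log2 fold change -1.24, SE 0.161, adjusted p = 1.7e-05) and rose in K148R cells (3.62, SE 0.113, adjusted p = 6.9e-13), and the mutants differed by 4.86 (SE 0.129, adjusted p = 1.5e-13). CCL2 (chromosome 17, 34255218 to 34257203), which attracts monocytes, was at 1.33, 1.08 and 1.13 CPM in parental cells, 16.5, 16.2 and 13.2 in K148Q, and 44.4, 43.3 and 44.4 in K148R libraries. It rose by 3.68 in K148Q (SE 0.15, adjusted p = 9.8e-11) and by 5.21 in K148R cells (SE 0.138, adjusted p = 1.2e-13). CCL2 and CXCL8 therefore had the same direction in K148R and opposite directions in K148Q cells.

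CCL5 (chromosome 17, 35871491 to 35880793), the T cell attractant also called RANTES, was at 26.4, 27.9 and 27.8 CPM in parental cells, 52.1, 53.9 and 45.5 in K148Q, and 6.47, 6.64 and 7.49 in K148R libraries. Its log2 fold change was 0.88 in K148Q (SE 0.0867, adjusted p = 1e-06) and -1.99 in K148R cells (SE 0.102, adjusted p = 1.7e-10). About 13.9% of the 50-base windows of CCL5 transcripts also occur in transcripts of other genes. CXCL10, a chemokine induced by interferon as well as by NF-kappaB, had 76 counts in the parental libraries (1.15, 1.59 and 2.08 CPM), 0 in K148Q and 8 in K148R libraries (0.218, 0.203 and 0.0619 CPM). CXCL10 passed the filter on low counts through the parental libraries, so its lower values elsewhere are those of a gene chosen for testing by its parental level. Against the floor it was at least 24.7-fold lower in K148Q than in parental cells (adjusted p = 1e-05), and it fell by 3.25 on the log2 scale in K148R cells (SE 0.474, adjusted p = 3.3e-05). It was called higher in K148R than in K148Q cells (adjusted p = 0.016), on 8 counts against 0.

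PTGS2 (chromosome 1, 186671791 to 186680427) encodes cyclooxygenase-2, the inducible enzyme of prostaglandin synthesis, and it had 5 counts in parental cells, 10 in K148Q and 175 in K148R cells. It reached 3.70, 2.84 and 4.02 CPM in the K148R libraries and at most 0.391 CPM in any other. It passed the filter on low counts through the K148R libraries, so its rise there of 4.96 on the log2 scale (SE 0.463, adjusted p = 1.3e-07) is a value for a gene near the floor elsewhere. Leaving out parental replicate 1 or 3 moved this rise to 5.59 or 4.36, and leaving out K148Q replicate 1 moved the difference between the mutants from 3.98 to 4.68.

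The 7 members that were not tested were at or near 0. IL1A had 0 counts in parental and K148Q cells and 10 in K148R cells (0.218, 0.0677 and 0.309 CPM), at least 3.19-fold higher than parental against the floor. CXCL2 had 0, 1 and 10 counts, with a ratio of 9.35 for K148R against K148Q cells (95% interval 1.33 to 406, for counting error only). CCL3, CCL4, CXCL3, IL6 and IL10 were listed at 0 throughout. Related genes share part of their sequence with these chemokines, with 10.1% of the 50-base windows of CCL4 also in CCL4L2, 4.93% of those of CCL3 in CCL3L1 and 8.99% of those of CXCL2 in CXCL3. The sources used here do not say how reads that match several genes were counted. The related gene CCL3L1 had 1, 0 and 10 counts in parental, K148Q and K148R cells.

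Levels between genes were compared as mean CPM per kilobase of annotated exon, a scale on which genes with long annotated ends such as REL and SOD2 rank low. In parental cells the highest levels on this scale were those of TNFAIP2 (23.8 ± 0.857), NFKBIB (19.5 ± 0.423), TNIP1 (18.5 ± 0.65), PLAUR (18.2 ± 1.09) and CCL5 (18.1 ± 0.559), of which the last 3 differ by less than their SDs. In K148Q cells CCL5 led with 33.4 ± 2.92, ahead of TNFAIP2 (19.7 ± 2.34), NFKBIB (18.7 ± 1.52), RELA (18.4 ± 1.94) and TNIP1 (18.3 ± 1.46), which lie within their SDs of each other. In K148R cells PLAUR (33.7 ± 0.807) was followed by TNFSF13B (30.4 ± 1.96) and CXCL8 (29.5 ± 1.94), a pair not separated beyond their SDs, and by TNFAIP2 (26.2 ± 2.14), NFKBIA (25.2 ± 1.33), TNIP1 (24.1 ± 1.62) and CCL2 (22.2 ± 0.317). TNFSF13B stood at 1.6 ± 0.0958 and CXCL8 at 2.39 ± 0.284 on the same scale in parental cells.

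Other genes of the pathway were counted from 6 lists written from textbook knowledge, with earlier results of these data known. Of genes of upstream signalling, such as kinases and adaptors, 6 of 26 tested were higher and 6 lower in K148R than in K148Q cells, against 36.6% and 34.5% of all tested genes. Of these MYD88, the adaptor of Toll-like and interleukin-1 receptors, rose from 47.6 ± 1.0 CPM in parental to 179 ± 3.51 in K148R cells, with 49.4 ± 2.78 in K148Q cells. MAP3K14, the kinase of the non-canonical branch, was at 7.83 ± 0.766, 6.3 ± 1.12 and 25.9 ± 2.55 CPM in parental, K148Q and K148R cells, and RIPK1 at 28.0 ± 1.0, 51.7 ± 0.681 and 74.8 ± 4.88 CPM. TAB1 and TRAF2, which encode adaptors, fell in K148R against K148Q cells (log2 fold change -0.79 and -0.73). Of 15 further genes listed as inhibitors of the pathway, BCL3 among them, 7 were higher and 3 lower in K148R than in K148Q cells. BCL3 was at 10.6 ± 0.281, 7.26 ± 0.602 and 38.0 ± 2.08 CPM in parental, K148Q and K148R cells, and the deubiquitinase CYLD at 88.3 ± 2.39, 69.8 ± 2.93 and 162 ± 4.86 CPM, whereas NLRC3 fell in both mutants, from 27.7 ± 2.15 to 6.56 ± 0.246 and 8.92 ± 1.4 CPM.

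Of further target genes 10 of 15 tested rose and 5 fell in K148Q against parental cells (27.0% and 26.3% of all tested genes), and 9 rose and 6 fell in K148R against parental cells (37.8% and 37.3%). CFLAR, an inhibitor of death receptor signalling, rose from 115 ± 1.92 to 193 ± 1.09 CPM in K148Q and 312 ± 10.03 in K148R cells, while IER3 fell from 7.31 ± 0.772 to 2.18 ± 0.379 and 2.57 ± 0.307 CPM. Of 39 further cytokine and chemokine genes 11 had 0 counts in all libraries and 11 were tested, with 9 higher and 2 lower in K148R than in parental cells. In K148Q against parental cells 5 of the 11 were higher and 4 lower. IL16 was at 42.1 ± 1.87, 27.2 ± 2.0 and 111 ± 3.45 CPM in parental, K148Q and K148R cells, and CXCL16 at 0.284 ± 0.246, 0.912 ± 0.0449 and 16.7 ± 0.758 CPM. The inflammasome list holds genes whose products release mature interleukin-1 beta and interleukin-18, and also others, such as IL18BP. Of its 12 tested genes 5 were higher and 4 lower in K148R than in K148Q cells, near the shares of all tested genes (36.6% and 34.5%). NLRC4, an inflammasome sensor, fell in K148Q and K148R against parental cells (log2 fold change -2.28 and -0.71). IL18BP, which encodes a secreted inhibitor of interleukin-18, rose from 6.83 ± 0.295 to 62.4 ± 3.06 CPM in K148R cells, in which IL18 itself fell. Receptors for the members' products were higher in K148R than in parental cells for 14 of 17 tested genes and lower for 3 (37.8% and 37.3% of all tested genes). In K148Q against parental cells 8 of the 17 were higher and 4 lower (27.0% and 26.3%), unlike the members, which were mostly lower there. The prostaglandin receptor gene PTGER4 was at 52.9 ± 3.44, 102 ± 2.17 and 324 ± 12.3 CPM in parental, K148Q and K148R cells, and the interleukin-6 receptor gene IL6R at 61.4 ± 2.08, 142 ± 2.94 and 271 ± 9.83 CPM.

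**Figure D4:**
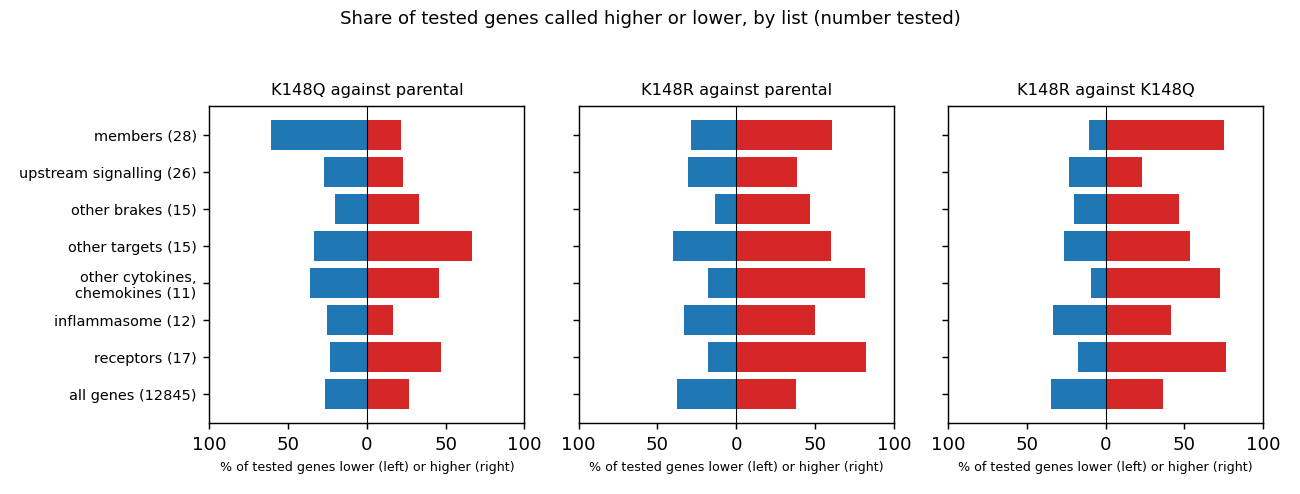
Share of tested genes called lower (blue, left of 0) or higher (red, right of 0) in percent, for the members, the 6 related lists and all tested genes, with the number tested in brackets. Members had 17 of 28 lower and 6 of 28 higher in K148Q against parental cells, and 21 of 28 higher and 3 of 28 lower in K148R against K148Q cells.

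Markers of monocytes and macrophages were mostly higher in both mutants, also in K148Q cells, where most tested members were lower. Of 19 listed markers 12 were tested, with 10 higher and 2 lower in K148R against parental cells (37.8% and 37.3% of all tested genes) and 7 higher and 1 lower in K148Q against parental cells (27.0% and 26.3%). Their summed level was 476 to 488 CPM in parental cells, 1009 to 1098 in K148Q and 2794 to 2902 in K148R libraries. CD14, a defining marker, had 6 counts in parental cells, 0 in K148Q and 17 in K148R cells, and MRC1 had 0 in all. Of 6 tested RNAs without a poly(A) tail, 6 were called higher in K148R than in K148Q cells (36.6% of all tested genes) and 3 higher than in parental cells (37.8%). The summed level of the 7 listed ones was 460 to 576 CPM in K148R libraries, against 13.1 to 43.7 for parental and 12.5 to 16.8 for K148Q. Of 7 listed markers of stromal, epithelial and endothelial cells, 4 were tested and 4 were called higher in K148R than in parental cells (37.8% of all tested genes). The 7 listed markers summed to 96.3 to 103 CPM in parental libraries, 214 to 221 with K148Q and 183 to 194 with K148R, and PECAM1 held most of this. The collagen gene COL1A1 had 15 counts in parental cells, 1 with K148Q and 140 with K148R. COL1A1 passed the filter on low counts through the K148R libraries, so its rise there is that of a gene chosen for testing by its K148R level. The collagen genes COL1A2 and COL3A1 had 0 counts in K148Q cells and were not called there against parental cells, so their parental counts were low too. Their calls in K148R cells are thus under the same limit as that of COL1A1. Of the 4 genes called higher in K148R cells, this leaves PECAM1. Markers of T and NK cells summed to 50 to 56 CPM in parental libraries, 25.3 to 27.9 with K148Q and 27.0 to 28.5 with K148R, and those of B cells to at most 7.31 CPM in any library. The part of these shifts in the results for the members was not tested.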

How the data were processed

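Total RNA of 9 MV4;11 libraries, 3 per MYC genotype, was sequenced. The authors deposited raw read counts per gene symbol, with no normalisation and a column per library. Per the submitters' processing notes, the build was GRCh38 and the tools were featureCounts 1.5.2, HISAT2 2.0.5 and FastQC 0.11.7. The sources used here do not give their options, the annotation or the use of strand.

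Genes passing filterByExpr (12845) were fitted over all 9 libraries with a term per genotype in edgeR 4.0.16 (R 4.3.3), with TMM scaling and the robust quasi-likelihood F test (6 residual degrees of freedom). SEs were taken from the F statistic. The procedure was tested on simulated counts with the same spread for every gene. No simulated library stood apart as K148Q replicate 3 does, so the simulation does not cover that case. An exact permutation of 3 against 3 libraries cannot go below 0.1, so none was used. Alternatives were DESeq2 1.42.0, limma-voom (limma 3.58.1), other scalings, filters and groupings, a replicate block and each library left out, 18 in all. Exon lengths and overlaps came from GENCODE 29 (GRCh38) and promoters from RefSeq.

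The members and lists were chosen with earlier results of these data known. All 35 members are named. From each related list and comparison, up to 2 called genes per direction with the smallest p and at least 5 CPM in the higher group could be named. Depth limits precision for genes of few counts, and intervals and floors cover counting error only.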

Additional observations from a re-analysis of the deposited data

How the results depend on the processing

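Counts of members called stayed within 1.5 times of the reported ones in all 18 alternatives. Of 84 pairs of a tested member and a comparison, 69 kept direction and call throughout. The median log2 fold change of the members in K148R against parental cells was 0.29 with library size only and 0.304 to 0.373 with a library left out, against 0.336 as reported. In K148R against K148Q cells it was 0.896 with only the compared groups fitted, against 0.974. Some signs turned, for differences near 0 that were not called as reported. RELA was called once, lower in K148R than in K148Q cells without K148Q replicate 3. SOD2 in K148Q against parental cells went to 0.000773 with library size only and to 5.39e-05 with only the compared groups, and RELA in K148R against K148Q cells to 0.0228 with upper quartile scaling. With a library left out, the ranges were -0.0717 to 0.019 for SOD2, -0.105 to 0.0191 for NFKBIB and -0.0682 to 0.0521 for TNIP1 in K148Q against parental cells, -0.16 to 0.0074 for NFKBIZ in K148R against parental cells, and -0.116 to 0.0267 for RELA in K148R against K148Q cells. The cause was not tested. Upper quartile scaling moved the share of higher among called genes by less than 10 percentage points. NFKB1 was called higher in K148R than in K148Q cells with upper quartile scaling (0.155, adjusted p = 0.045, with adjusted p from 0.045 to 0.43 over the alternatives). NFKBIB lost its call between the mutants without K148R replicate 2 (0.18, adjusted p = 0.078) and with only the compared groups (adjusted p = 0.058). Without a filter, IL1A and CXCL2 were called higher in K148R than in parental cells (adjusted p = 0.014 and 0.011).

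With the replicate number as a block, 23 members were called in K148Q and 24 in K148R against parental cells and 25 between the mutants, against 23, 25 and 24 without it, and BIRC3 lost its call in K148R cells (adjusted p = 0.055) while IL18 gained 1 between the mutants (adjusted p = 0.049). Deviations of same-numbered libraries correlated at -0.015 to 0.35, with 2 of 9 pairs over 0.1, and 6 of 9 libraries correlated best with their own number. The pairs over 0.1 were K148Q with K148R replicate 1 (0.21) and K148Q with K148R replicate 3 (0.35). K148Q replicate 2 with K148R replicate 1 was at 0.23. The labels name no batch for the numbers, so the block was kept as an alternative. Whether same-numbered mutant libraries share a source was not tested.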
